A study of Homo sapiens with 11 samples.

Results

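The RNAs and proteins of the paraspeckle were followed through 6 genes chosen by symbol: NEAT1, MALAT1, NONO, SFPQ, PSPC1 and RBM14. All 6 were found, each as 1 entry, among the 58699 genes of the deposited total RNA table. The rule matches gene symbols and uses no measured value, but the members were proposed with earlier results of these data known.

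The cells were HCT116, a long-established line from a human colorectal cancer, and their total RNA was sequenced as 8 libraries in 4 groups of 2. In the siLuc DMSO group, cells had an siRNA against luciferase, the control, and the solvent DMSO. The siLuc DAC group had the luciferase siRNA and decitabine (DAC), a cytidine analogue that inhibits DNA methyltransferases, given at 500 nM for 5 days. The siStau1 DMSO group had an siRNA against Staufen1, which recognises double-stranded stretches of RNA, with DMSO, and the siStau1 DAC group had that siRNA with the same decitabine dose. All groups thus carry an siRNA, every group comes from the same line, and per the labels' protocols the libraries were stranded and depleted of ribosomal RNA. A further 3 libraries of antibody-bound RNA are described by repeat elements without gene names, and were not used here.

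Paraspeckles are bodies in the nucleus that form on the long noncoding RNA NEAT1. NONO, SFPQ and PSPC1, which share the DBHS fold and pair with each other, coat that RNA, and RBM14 is 1 of the further proteins that paraspeckles need to form. Paraspeckles can hold RNAs with inverted Alu repeats in the nucleus, and these RNAs are among those that Staufen1 binds. MALAT1 is the neighbouring long noncoding RNA: it resides mainly in nuclear speckles, the adjacent bodies rich in splicing factors, and is not a structural part of the paraspeckle.

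NEAT1 and MALAT1 lie on the same strand of chromosome 11, with 52.1 kb between the end of NEAT1 and the start of MALAT1, and they share an unusual 3′ end. RNase P cuts in front of a small RNA that folds like a tRNA, and the end left on the long RNA is not polyadenylated but protected by a triple helix of U-rich stretches with an A-rich tract. These ends are shown because they are what the scaffold RNA and its neighbour have in common in sequence, and because libraries depleted of ribosomal RNA, as here, can hold RNAs that lack a poly(A) tail. Below are the 120 bases before each cut, 5′ to 3′ on the + strand of GRCh38 (GENCODE 29), at chr11:65445421-65445540 for NEAT1 and chr11:65505997-65506116 for MALAT1. Capitals mark stretches of at least 10 bases present in both.
NEAT1 end: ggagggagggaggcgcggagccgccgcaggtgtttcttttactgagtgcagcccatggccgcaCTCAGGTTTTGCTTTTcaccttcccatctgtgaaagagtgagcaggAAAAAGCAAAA
MALAT1 end: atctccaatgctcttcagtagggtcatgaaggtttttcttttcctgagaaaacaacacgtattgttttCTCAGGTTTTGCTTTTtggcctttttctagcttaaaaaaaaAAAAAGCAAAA

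The shared U-rich stretch, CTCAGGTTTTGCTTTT, has 16 bases, and the shared A-rich tract, AAAAAGCAAAA, has 11. On the transcript strand, the first was found in the last 120 bases of 1 of 55828 noncoding transcripts of GENCODE 29 (0.00179%), that of NEAT1, and the second in 28 (0.0502%). The MALAT1 end shown lies inside its annotated gene, which runs on to position 65506516. The small RNAs that follow the cuts, at chr11:65445541-65445598 and chr11:65506117-65506173, are given next with stretches of at least 8 shared bases in capitals.
NEAT1 tRNA-like RNA: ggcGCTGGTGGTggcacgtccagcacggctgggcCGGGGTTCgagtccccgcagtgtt
MALAT1 tRNA-like RNA: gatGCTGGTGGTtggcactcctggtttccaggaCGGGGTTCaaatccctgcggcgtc

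Both small RNAs, of 58 and 57 bases, have entries of their own in the table and were listed at 0 in all 4 groups. Several other short entries nearby were also at 0, and a 0 for so short an entry does not show that the RNA is absent.

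Levels are FPKM, fragments scaled to transcript length and library size, which allow genes to be compared per length. The table holds 1 FPKM value per group and none per library, so no spread between the libraries can be shown. Genes are called changed where the q-value in the authors' deposited table is under 0.05. The smallest q there is 0.00162, from the smallest Cuffdiff p of 5e-05, so a q of 0.00162 stands at a floor. Changes are log2 ratios of FPKM with 0.1 added to each group. Nothing in the labels says that the 2 libraries of a group came from separate cultures, so any spread between libraries behind these p-values may be technical. How that spread enters the p-values cannot be seen from 1 value per group. Beside some log2 ratios an implied error is given: the deposited log2 change divided by the deposited test score, a standard error only if the score is that ratio, which the table does not state. In bulk RNA, fewer cells with a transcript and less of it per cell cannot be told apart.

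The targeted gene, STAU1, went from 35.5 FPKM in siLuc DMSO to 30.0 in siStau1 DMSO, and from 33.7 in siLuc DAC to 27.1 in siStau1 DAC. Neither difference was called in the authors' deposited table (q = 0.767 and 0.685), and the log2 ratios were -0.24 and -0.31. STAU2, the related gene, fell with decitabine in siLuc cells from 27.9 to 7.33 FPKM (q = 0.0383 in the authors' deposited table), and went from 40.2 to 16.7 in siStau1 cells without a call. The epithelial markers EPCAM, KRT8, KRT18, CDH1 and CDX2 were above 1 FPKM in every group, but some moved with the drug. EPCAM fell from 259 to 117 FPKM in siLuc cells (q = 0.0157), and KRT18 rose from 509 to 2415 in siStau1 cells (q = 0.0348, both in the authors' deposited table). PTPRC, PECAM1 and ALB, for blood, endothelium and liver, were under 1 FPKM in every group, and COL1A1, of fibroblasts, was between 0.826 and 8.60. Of these, PTPRC (0 to 0.820) and COL1A1 (0.826 to 5.65) were called higher with decitabine in siStau1 cells, and PECAM1 (0 to 0.633) in siLuc cells (q = 0.00162, 0.0201 and 0.00162 in the authors' deposited table); the part of these shifts in any result was not tested. Log2 ratios also followed the GC content of the transcripts over all expressed protein-coding genes, with Spearman's rho of 0.659 and 0.624 for decitabine in siLuc and siStau1 cells, and -0.487 and -0.715 for the knockdown in DMSO and in decitabine. For that reason the main changes are also given relative to the median of the genes in the same 1 of 20 bins of GC content, called GC-centred; the part of GC content in any result was not tested.

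Of the members, the noncoding RNAs and RBM14 had more RNA in both decitabine groups than in the DMSO group with the same siRNA, SFPQ and PSPC1 had less, and NONO spanned 1.16-fold over the 4 groups; MALAT1 in siStau1 cells loses its direction under another scaling, given with its values. None of these differences was called by the authors. With decitabine in siLuc cells, 0 of 6 members were called, where 13.5% of 17504 tested genes were. In siStau1 cells 0 of 6 were called, beside 7.46% of 16979. For the knockdown, 0 of 6 were called in DMSO and 0 of 6 in decitabine, where the shares over all genes were 0.799% and 0.904%. Against siLuc DMSO, siStau1 DAC also gave 0 of 6 calls, beside 4.98%. At an unadjusted p under 0.05 in the authors' Cuffdiff table, 1 member passed with decitabine in siLuc cells, NEAT1, and 0 passed in each of the other 4 comparisons. Over all tested genes that share was 28.9% and 19.0% for decitabine in siLuc and siStau1 cells, 4.3% and 6.95% for the knockdown in DMSO and in decitabine, and 13.6% for siStau1 DAC over siLuc DMSO. These 5 comparisons draw on the same 4 groups and are therefore not separate evidence.

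**Figure D1:**
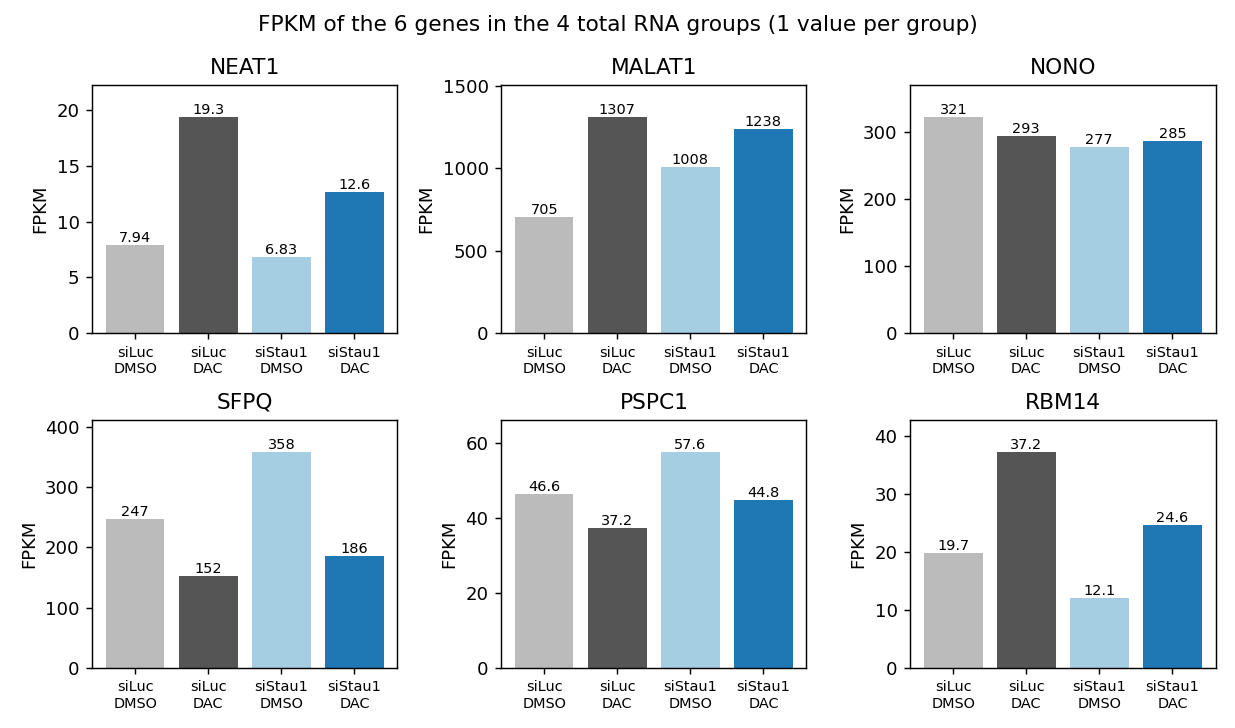
FPKM (vertical axis, from 0, own scale per gene) of each of the 6 genes in the 4 total RNA groups, 1 bar per group with its value, and no error because the table has none per library. NEAT1 is highest in siLuc DAC at 19.3 and SFPQ highest in siStau1 DMSO at 358, while NONO stays between 277 and 321.

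NEAT1 (ENSG00000245532.8, chromosome 11, positions 65422774 to 65445540, + strand, a lincRNA of GRCh38) is the scaffold without which paraspeckles do not form. It measured 7.94 FPKM with DMSO and 19.3 with decitabine in siLuc cells, and 6.83 and 12.6 in siStau1 cells. The decitabine groups were thus the higher in both siRNA arms, with the siLuc arm above the siStau1 arm at either treatment. With decitabine in siLuc cells NEAT1 was 2.44-fold higher, a log2 ratio of 1.27 with an implied error of 0.84 (p = 0.0072 and q = 0.0792 in the authors' deposited table). That q is adjusted over the tests of all 6 comparisons together. The Benjamini-Hochberg value within this comparison alone was 0.0449, and 0.0441 with only genes that reached 1 FPKM in both groups. Either would make it a call, but how many other genes would also become calls was not counted. In siStau1 cells the log2 ratio was 0.88 with an implied error of 0.93 (q = 0.318 in the authors' deposited table).

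Relative to genes of like GC content the NEAT1 differences were larger, at 1.68 in siLuc and 1.18 in siStau1 cells. Its transcript has 44.1% GC, a range in which the median gene was lower with decitabine, and its log2 ratio lay above that of 97.9% of the 577 genes in its bin in siLuc cells and of 94.3% in siStau1 cells. The knockdown gave -0.21 in DMSO and -0.61 in decitabine, with q of 0.882 and 0.546 in the authors' deposited table. NEAT1 was called in the sixth deposited comparison alone, siLuc DAC over siStau1 DMSO, its highest against its lowest group: it was 2.83-fold higher there, a log2 ratio of 1.49 (q = 0.0413 in the authors' deposited table). It was the 1 member of 6 called in that comparison, where 16.7% of tested genes were called and 9.37% were called higher. That comparison changes the siRNA and the drug at once, and was looked at after its call had been seen.

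The table counts NEAT1 as 1 gene. Its short polyadenylated form lies within the start of the long form that builds the paraspeckle, so a difference in the gene's FPKM does not show which form differs. Among the long noncoding RNAs with at least 1 FPKM, NEAT1 ranked 117 of 781 with DMSO and 58 of 1042 with decitabine in siLuc cells, and 131 of 739 and 73 of 893 in siStau1 cells.

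MALAT1 (ENSG00000251562.8, chromosome 11, positions 65497688 to 65506516, + strand, a lincRNA) was among the 4 most abundant long noncoding RNAs in every group. It measured 705 FPKM with DMSO and 1307 with decitabine in siLuc cells, and 1008 and 1238 in siStau1 cells. The siLuc DMSO group was the lowest and the other 3 lay within 1.30-fold of each other. Decitabine in siLuc cells gave a log2 ratio of 0.89 with an implied error of 1.10, and in siStau1 cells 0.30 with 1.22 (q = 0.579 and 0.879 in the authors' deposited table). GC-centred, these were 1.48 and 0.82, above 97.9% and 90.1% of the genes of its bin. For the knockdown the log2 ratios were 0.52 in DMSO and -0.08 in decitabine, with q of 0.774 and 0.970 in the authors' deposited table. The implied errors exceed each of these log2 ratios that is not GC-centred, and the value in siStau1 cells was -0.01 when each group was scaled to its FPKM sum without the 3 highest genes.

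Per length, MALAT1 exceeded NEAT1 by 88.8-fold with DMSO and 67.6-fold with decitabine in siLuc cells, and by 148-fold and 98.0-fold in siStau1 cells. The ratio was lower with decitabine than with DMSO in both arms and higher with the Staufen1 siRNA at both treatments. No test of the ratio was possible.

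NONO (ENSG00000147140.15, chromosome X, positions 71283192 to 71301168, + strand) encodes the most abundant DBHS RNA in 3 of the 4 groups. It measured 321 FPKM with DMSO and 293 with decitabine in siLuc cells, and 277 and 285 in siStau1 cells, a range of 1.16-fold. Its log2 ratios were -0.13 and 0.04 for decitabine and -0.21 and -0.04 for the knockdown, with q between 0.868 and 0.973 in the authors' deposited table. All of these lie within the implied errors of 0.55 to 0.67.

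SFPQ (ENSG00000116560.10, chromosome 1, positions 35176378 to 35193148, − strand), the partner of NONO and a protein that long NEAT1 needs, had the widest range of the DBHS genes, 2.36-fold. It measured 247 FPKM with DMSO and 152 with decitabine in siLuc cells, and 358 and 186 in siStau1 cells. Both decitabine groups were below both DMSO groups, and siStau1 was above siLuc at either treatment. The decitabine log2 ratio was -0.70 with an implied error of 0.58 in siLuc cells and -0.95 with 0.68 in siStau1 cells (p = 0.0707 and 0.0616, q = 0.342 and 0.316 in the authors' deposited table). SFPQ lay below the median of its GC bin, at -0.75 and -1.01, with 18.5% and 7.32% of the bin's genes lower still. The knockdown gave 0.54 in DMSO and 0.29 in decitabine (q = 0.636 and 0.774 in the authors' deposited table). SFPQ exceeded NONO in siStau1 DMSO, at a ratio of 1.29, and was below it elsewhere, at 0.769 and 0.517 in siLuc cells with DMSO and decitabine and at 0.651 in siStau1 DAC.

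PSPC1 (ENSG00000121390.18, chromosome 13, positions 19674752 to 19783019, − strand), the DBHS protein that paraspeckles can form without, had the lowest DBHS RNA. It measured 46.6 FPKM with DMSO and 37.2 with decitabine in siLuc cells, and 57.6 and 44.8 in siStau1 cells, in the same order as SFPQ over the 4 groups. Its decitabine log2 ratios were -0.32 and -0.36, and its knockdown log2 ratios 0.31 and 0.27, with q from 0.631 to 0.757 in the authors' deposited table. GC-centred, the decitabine values were -0.02 and -0.25, so PSPC1 in siLuc cells lay at the median of genes of like GC content. Summed over NONO, SFPQ and PSPC1, DBHS RNA was 615 FPKM with DMSO and 482 with decitabine in siLuc cells, and 693 and 516 in siStau1 cells. NONO RNA per NEAT1 RNA was 40.5 in both DMSO groups, 15.2 in siLuc DAC and 22.6 in siStau1 DAC. As NONO RNA varied little, this ratio mostly restates the uncalled NEAT1 differences. The NEAT1 value counts its short and long forms together, so the ratio is not one of coat to scaffold. These are RNA values and say nothing of protein.

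RBM14 (ENSG00000239306.4, chromosome 11, positions 66616582 to 66627347, + strand) encodes a protein with a prion-like domain, and lies 1110 kb beyond the end of MALAT1. It measured 19.7 FPKM with DMSO and 37.2 with decitabine in siLuc cells, and 12.1 and 24.6 in siStau1 cells. As with NEAT1, decitabine groups were higher in both arms and siStau1 groups lower at both treatments, over a range of 3.08-fold. The decitabine log2 ratios were 0.91 with an implied error of 1.07 and 1.02 with 1.28, the knockdown ones -0.70 and -0.59 (q from 0.539 to 0.756 in the authors' deposited table). Unlike NEAT1, RBM14 has a GC-rich transcript (59.4%), and the GC-centred decitabine values were 0.12 and 0.40. RBM14 shares its locus with the read-through gene RBM14-RBM4 (1.32, 4.46, 2.05 and 2.65 FPKM in the same order), whose reads could be split between them, so RBM14 levels are uncertain to that extent.

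**Figure D2:**
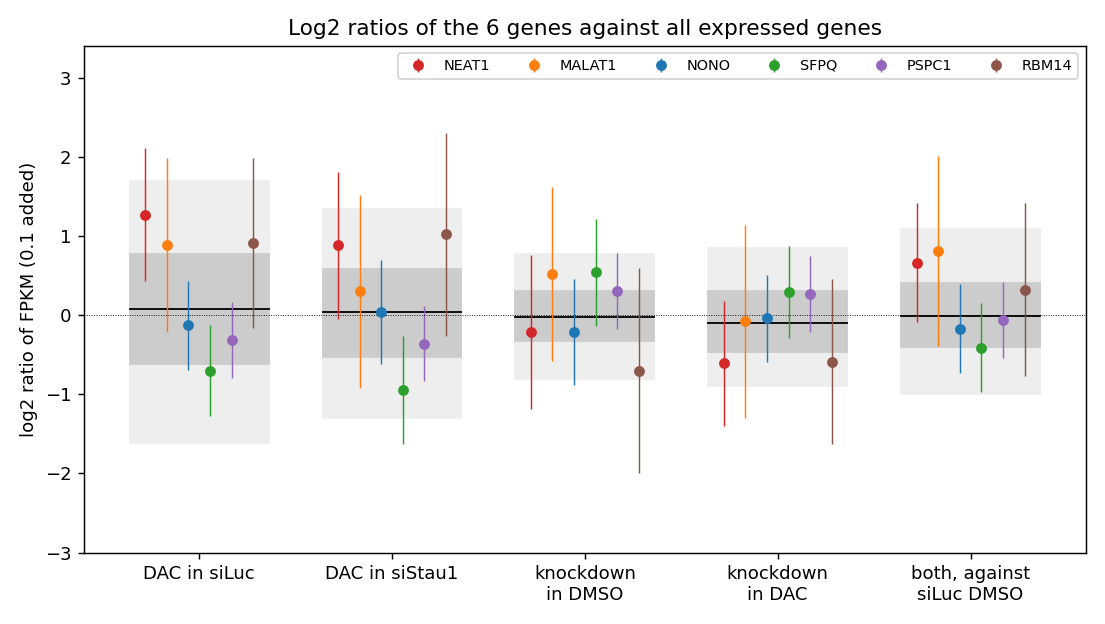
Log2 ratios of FPKM (vertical axis, 0.1 added to each group) of the 6 genes in 5 comparisons. Points are the genes with bars of 1 implied error on each side, and the grey boxes hold the middle 50% (dark) and 90% (light) of genes with at least 1 FPKM, with a line at their median. The NEAT1 point for decitabine in siLuc, at 1.27, is the highest of the 6 in any comparison drawn, and SFPQ for decitabine in siStau1 the lowest at -0.95.

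Over the members as a set, the median log2 ratio was 0.38 for decitabine in siLuc cells and 0.17 in siStau1 cells, beside 0.08 and 0.02 over all genes that reached 1 FPKM in both groups. For the knockdown it was 0.05 in DMSO and -0.06 in decitabine, beside -0.02 and -0.11. GC-centred, the members' medians in these 4 comparisons were 0.06, 0.25, 0.04 and -0.08. A median near 0 here covers members that lie on opposite sides. Only NEAT1 in siLuc cells and RBM14 in siStau1 cells reached a log2 ratio of 1 with decitabine, as 33.6% and 23.2% of all genes did in either direction.

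The decitabine log2 ratio differed between the arms (siStau1 minus siLuc) by -0.40 for NEAT1 and -0.60 for MALAT1. Both lay outside the middle 50% of 11935 genes (-0.36 to 0.33), as 50% of genes do. The implied errors of the log2 ratios in siLuc and siStau1 cells were larger, 0.84 and 0.93 for NEAT1 and 1.10 and 1.22 for MALAT1. For SFPQ, PSPC1, RBM14 and NONO the differences were -0.24, -0.04, 0.11 and 0.17. With 1 value per group these differences between the arms were not tested.

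**Figure D3:**
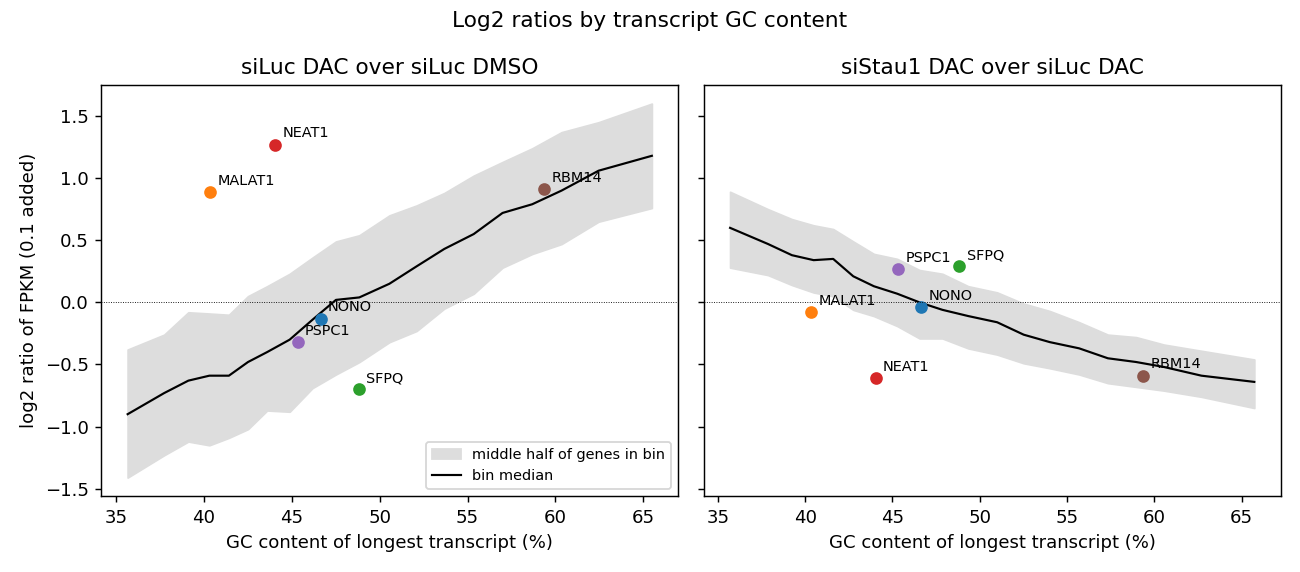
Log2 ratio of FPKM against the GC content of the longest annotated transcript, for decitabine in siLuc cells (left) and the knockdown in decitabine (right). The line is the median and the grey band the middle 50% of genes in each of 20 bins, and coloured points are the 6 genes. On the left, NEAT1 and MALAT1 lie above the band at low GC content, RBM14 lies close to the line and SFPQ lies at -0.70 below it.

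Calls among other proteins found in paraspeckles are given beside the shares over all genes, at which a list of this size would also hold few. Of 32 listed, 31 were tested. With decitabine in siLuc cells 1 was called higher, beside 8.71% of all genes, and 2 lower, beside 4.78%; 9 of the 31 had an unadjusted p under 0.05, beside 28.9% of all genes. ZNF335, a zinc finger regulator of transcription, rose from 2.71 to 10.8 FPKM (q = 0.00162 in the authors' deposited table). HNRNPR, an RNA-binding protein, fell from 142 to 57.7 (q = 0.00415), and ZC3H6, a zinc finger protein, from 4.50 to 0.350 (q = 0.00293, both in the authors' deposited table). In siStau1 cells HNRNPR alone was called, falling from 187 to 78.6 FPKM (q = 0.0208 in the authors' deposited table), beside 2.89% of genes called lower, and 4 of 31 had an unadjusted p under 0.05, beside 19.0%. HNRNPR has a transcript of 35.3% GC, and its log2 ratios of -1.30 and -1.25 were -0.41 and -0.57 once GC-centred; for ZNF335 in siLuc cells 1.96 became 1.06.

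Neither knockdown comparison had a call on this list in the authors' Cuffdiff table. At an unadjusted p under 0.05 there were 0 in DMSO and 1, ZNF335, in decitabine, beside 4.3% and 6.95% of all genes. In siStau1 DAC over siLuc DMSO only ZC3H6 was called lower (q = 0.0413 in the authors' deposited table), beside 0.964% of genes. The median of the list was -0.26 for decitabine in siLuc and -0.24 in siStau1 cells, with 18 and 22 of 30 proteins of at least 1 FPKM below 0, and -0.10 in both once GC-centred.

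HNRNPK, CPSF6, NUDT21 and TARDBP, which act on NEAT1 or in paraspeckles, were not called in any of the 5 comparisons. HNRNPK, which steers NEAT1 towards its long form, measured 476 and 314 FPKM with DMSO and decitabine in siLuc cells, and 462 and 354 in siStau1 cells. In the same order, CPSF6 and NUDT21, which favour the short polyadenylated form, measured 62.1, 53.8, 79.8 and 52.7, and 97.5, 67.5, 115 and 79.7 FPKM. TARDBP, the gene of TDP-43, measured 101, 60.1, 131 and 70.8 FPKM. All 4 had lower values with decitabine in both arms, with log2 ratios from -0.89 to -0.21, and from -0.37 to 0.52 once GC-centred.

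**Figure D4:**
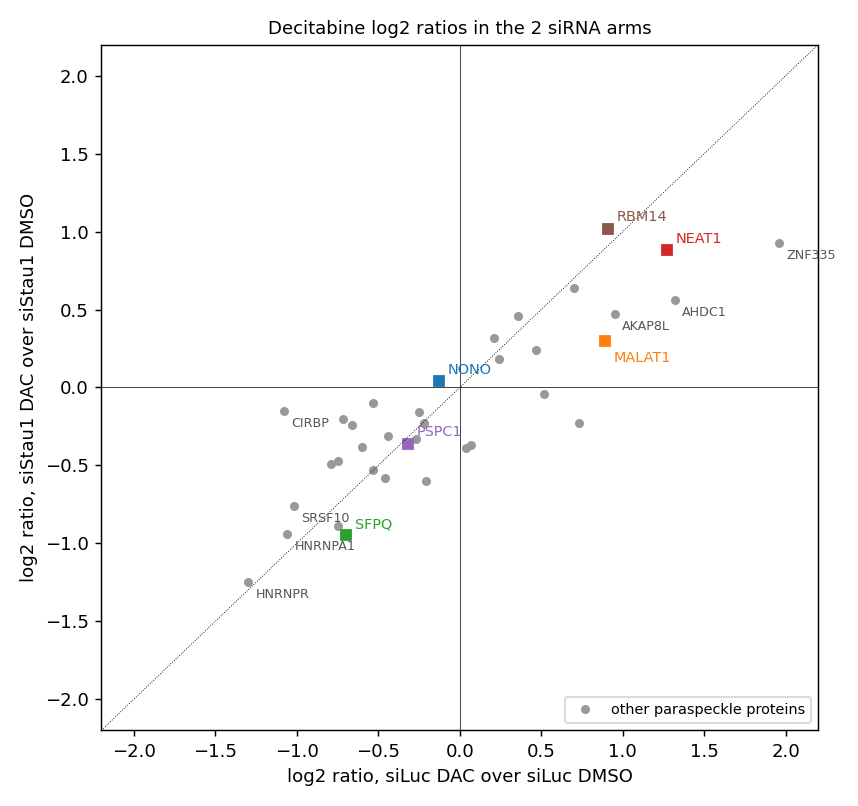
Log2 ratio for decitabine in siLuc cells (horizontal) against that in siStau1 cells (vertical), for the 6 genes (coloured squares) and 30 other paraspeckle proteins with at least 1 FPKM in all 4 groups (grey points), with a dotted line where the arms are equal. NEAT1 sits at 1.27 and 0.88, below the line, and SFPQ at -0.70 and -0.95.

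Among 20 proteins of nuclear speckles, where MALAT1 resides, the splicing factor SRSF3 alone was called with decitabine in siLuc cells, falling from 759 to 277 FPKM (q = 0.0272 in the authors' deposited table). That is 1 of 20 beside 4.78% of all genes called lower, and 7 of 20 had an unadjusted p under 0.05, beside 28.9%. The list gave 0 calls in the other 4 comparisons of the authors' Cuffdiff table, with 3 of 20 at an unadjusted p under 0.05 for decitabine in siStau1, 0 and 1 for the knockdown in DMSO and in decitabine, and 1 for siStau1 DAC over siLuc DMSO; the shares over all genes at either threshold are those given with the members.

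Of 14 genes for RNase P subunits, ELAC2 and m6A methyltransferases, which process or modify the RNAs shown above, 2 were called with decitabine in siLuc cells, a share close to the 13.5% of all genes. RPP25 rose from 2.50 to 9.13 FPKM (q = 0.0126) and RPP30, another RNase P subunit, fell from 65.2 to 16.8 (q = 0.00293, both in the authors' deposited table). Both differences lay on the same side in siStau1 cells, where neither was called.

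Among proteins that bind inverted Alu RNA or act on its retention and export, 8 were tested. With decitabine in siLuc cells 1 was called higher and 1 lower, beside 8.71% and 4.78% of all genes. The mRNA export receptor NXF1 went up from 22.8 to 60.0 FPKM (q = 0.00415) and the helicase DHX9 went down from 145 to 70.4 (q = 0.0134, both in the authors' deposited table). In the other 4 comparisons by the authors (Cuffdiff), 0 of 8 were called, beside 7.46%, 0.799%, 0.904% and 4.98% of all genes, with 1 at an unadjusted p under 0.05 for decitabine in siStau1 cells and 0 in the rest. MATR3, a nuclear matrix protein that binds NONO and SFPQ, has 2 entries and was kept out of those counts: the larger fell with decitabine from 224 to 79.9 FPKM in the siLuc arm and from 306 to 127 in the siStau1 arm (q = 0.0354 and 0.0149 in the authors' deposited table), and the other, at 11.0 to 21.2 FPKM, was not called. ADAR, which edits inverted Alu RNA and so affects whether NONO holds it back, measured 121, 176, 93.6 and 120 FPKM, and CARM1, which methylates NONO, measured 14.5, 26.4, 12.9 and 20.1. Neither was called in any of the 5 comparisons.

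Of 3 mRNAs used in studies of inverted Alu retention, PAICS was the only one expressed well. With decitabine it fell from 172 to 53.4 FPKM among siLuc cells and from 216 to 84.3 among siStau1 cells (q = 0.00162 for each in the authors' deposited table). NICN1 stayed at 0.469 to 0.812 FPKM and LIN28A under 1. Total RNA does not separate nucleus from cytoplasm, so none of these values bears on retention itself.

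The genes around NEAT1 and MALAT1 were read because both RNAs had more RNA with decitabine. Of 44 entries within 250 kb, 27 had at least 1 FPKM in some group and 25 of those were tested for decitabine in siLuc cells. Of these, 7 were called higher and 0 lower, 28.0% beside 8.71% of all genes called higher. Among the 7 were CAPN1, SLC25A45, FRMD8, LTBP3, SSSCA1 and RELA. Called or not, 20 of the 27 had a log2 ratio above 0 and 6 below. The share of all genes above 0 was not computed. Shares of neighbours and of all genes are not like for like, because only the neighbours had to reach 1 FPKM in some group. SLC25A45, at 0.202 FPKM in siLuc DMSO and 2.35 in siLuc DAC, passed only through the group in which it was called higher. Several uncalled neighbours also passed only through decitabine groups, among them an entry inside NEAT1 at 0 except for 8.51 FPKM in siLuc DAC. Fewer passed only through a DMSO group. The direction of all these was partly set by that minimum, and the counts above include them. CAPN1, a calcium-dependent protease, went from 40.9 to 94.9 FPKM, and RELA, a subunit of NF-kB, from 9.85 to 28.3 (q = 0.00162 for each in the authors' deposited table). FRMD8, the nearest protein-coding gene upstream of NEAT1, rose from 6.09 to 19.1 FPKM (q = 0.0173 in the authors' deposited table).

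In siStau1 cells CAPN1 and FRMD8 were called, 2 of 26 tested or 7.69%, beside 4.56% of all genes. The neighbours are GC-rich, with a median of 59.5% GC. Their median log2 ratio with decitabine was 1.22 in siLuc and 0.75 in siStau1 cells, including those that passed only through decitabine groups. It was 0.35 and 0.19 over the 17 that could be GC-centred, where NEAT1 itself stood at 1.68 and 1.18. In neither knockdown comparison was a neighbour called in the authors' Cuffdiff table, and 0 and 4 had an unadjusted p under 0.05 in DMSO and in decitabine, of 23 and 26 tested, beside 4.3% and 6.95% of all genes. Among the neighbours, 2 expressed entries lie inside NEAT1. Over protein-coding neighbours alone, a restriction made after seeing this, 7 of 20 were called higher in siLuc cells, SLC25A45 among them.

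**Figure D5:**
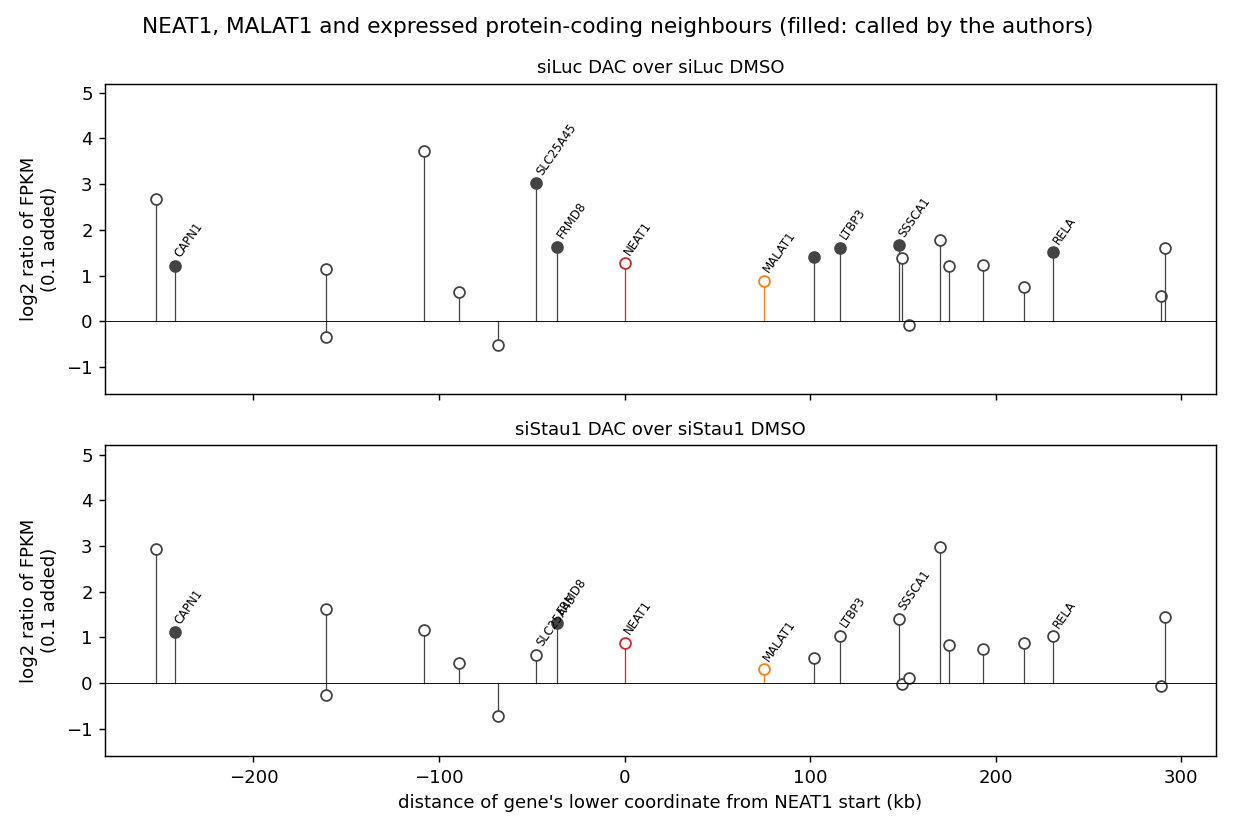
Log2 ratio of FPKM (vertical, 0.1 added) against the distance of each gene's lower coordinate from the start of NEAT1 (kb), for NEAT1 and MALAT1 (coloured) and the expressed protein-coding neighbours, with decitabine in siLuc (top) and siStau1 cells (bottom). Labels mark genes named in the text, and filled points were called by the authors: 7 neighbours at the top, 2 at the bottom, and neither NEAT1 nor MALAT1.

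The genes closest in profile to each member were found among 11144 protein-coding and long noncoding genes with at least 1 FPKM in all 4 groups, by the Euclidean distance between log2 values centred on the gene's mean; with 4 values per gene, many genes come close. FBXO31 lay nearest to NEAT1 (0.018), with GCAT (0.025) and UNC93B1 (0.034), and FBXO31 measured 11.6, 28.2, 9.86 and 18.4 FPKM. JOSD1 was nearest to MALAT1 (0.019), CKS1B to NONO (0.013), ITM2B to SFPQ (0.030), MMGT1 to PSPC1 (0.018) and NUBP2 to RBM14 (0.022). Between members, NEAT1 and RBM14 were closest at 0.36, followed by SFPQ and PSPC1 at 0.51 and NONO and PSPC1 at 0.52. Even so, 9.23% of the genes were nearer to NEAT1 than RBM14 was. For PSPC1, 16.1% were nearer to SFPQ and 26.3% nearer to NONO than it was. NEAT1 and SFPQ lay 2.07 apart. NEAT1 and MALAT1, neighbours in the genome, were 0.80 apart, and 32.1% of the genes were nearer to NEAT1 than MALAT1 was.

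Promoters of 4 members have an entry in RefSeq's table on GRCh38.p14, covering 250 bases before to 50 after a start. CpG counts per 300 bases were 37 for the main MALAT1 start and 14 for a second one, 28 for RBM14, and 26 each for PSPC1 and NONO, beside a median of 14 over 35116 promoters. DNA methylation was not measured here.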

How the data were processed

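Total RNA values are FPKM, which the authors deposited as 1 value per group (2 libraries each) in a table in Cuffdiff's layout, per the file headers. For each of 6 pairwise comparisons the authors deposited a log2 fold change, a test statistic (a score), a p-value and a q-value. The submitters' processing notes name bcl2fastq 2.20, HISAT2 2.1.0, featureCounts, DESeq 1.36.0, Cuffdiff 2.2.1 and Cuffnorm 2.2.1 and the build hg38, without saying which step used which. The table has no value per library, so depth is unknown and no test of this work was possible: calls are the authors', at q under 0.05. Recomputed, the q-value is Benjamini-Hochberg over 102180 tests, with a largest gap of 5.3e-07.

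Log2 ratios were computed with 0.1 FPKM added, turned so that decitabine stands over DMSO and siStau1 over siLuc, which understates changes of low genes. Genes were matched by identifier to GENCODE 29 (58699 of 58699) for positions and for the GC content of the longest transcript. Named genes are all members, called members of each list, the targeted and related single genes, expressed neighbours and the 3 nearest profiles; of these, some called neighbours, all 3 profiles for NEAT1 and the nearest 1 for each other member are printed. Beyond this rule, the paraspeckle proteins that were not called were picked for their known roles, and the single neighbours described in full after their values were seen. Members and lists were chosen with earlier results of these data known. Some genes of the lists and among the neighbours are not reported here by name. No promoter entry was used for NEAT1 or SFPQ. Alternatives were other pseudocounts (0.01 and 1 FPKM), centring on all genes or on 20 GC bins, scaling to the FPKM sum without the 3 highest genes, q under 0.01, adjustment within a comparison, and a minimum of 1 FPKM. The computations used Python 3.11.15, pandas 2.3.3 and numpy 2.4.6, and were tested on simulated data.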

Additional observations from a re-analysis of the deposited data

How the results depend on the processing

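No paired analysis was possible because the table used here gives 1 value per group; fits with the replicate number as a block, and fits without single replicates, were not run for that reason, and depth is unknown. The number of members called with decitabine in siLuc cells was 0 over all 6 comparisons, and 1 (NEAT1) when p-values were adjusted within the comparison or over genes that reached 1 FPKM in both groups. The share of all genes called under those 2 adjustments was not computed, and the 13.5% given with the members does not apply to them. That 1 call therefore has no background beside it. The call of NEAT1 in siLuc DAC over siStau1 DMSO was lost at q under 0.01, leaving 0. For the other paraspeckle proteins, the single call with decitabine in siStau1 cells became 0 at q under 0.01, and the single call in siStau1 DAC over siLuc DMSO became 0 at q under 0.01, within the comparison and with the FPKM minimum. Of 180 recomputed log2 ratios of members, 168 kept their sign and 12 did not, and 1 moved by more than its implied error (PSPC1 in siLuc DAC over siStau1 DMSO, at -1.19 when scaled to the FPKM sum). NEAT1 with decitabine in siLuc cells stayed between 0.85 and 1.68. Scaling to the FPKM sum without the 3 highest genes shifted all genes by -0.43 and -0.31 on the log2 scale for decitabine in siLuc and siStau1 cells, and by 0.13 and 0.25 for the knockdown in DMSO and in decitabine. It turned the median of the members to -0.05 and -0.14 for decitabine in siLuc and siStau1 cells, to 0.19 for the knockdown in decitabine, and put MALAT1 at -0.01 for decitabine in siStau1 cells and at 0.17 for the knockdown in decitabine. The cause of these moves was not tested.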
